A study of Mus musculus with 21 samples.

Results

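A set of 9 genes of the BCL2 family were described across sorted cells of the mouse spleen: the pro-survival genes Bcl2, Bcl2l1 and Mcl1, the BH3-only genes Bcl2l11, Bid, Bbc3 and Bmf, and the effector genes Bak1 and Bax. Members were the probe sets to which the array annotation gave one of these symbols and no other. Of the 9 genes listed, 8 had such a probe set, and Bax was not analysed here. The 8 genes had 29 of the 34945 probe sets with a single symbol. A filter on low signals kept 27 of the 29, and 8 of the 13284 genes tested were members.

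RNA of sorted spleen cells was measured on 21 Affymetrix arrays, with 3 arrays in each of 7 groups named by the sample titles. Dendritic cells (DCs), the antigen-presenting cells that prime T cells, were sorted with the antibody 33D1 or with the antibody DEC205. The groups 33D1_WT and DEC205_WT came from wild-type C57BL/6 mice, with 40 to 80 mice in a pool. The groups 33D1_Flt3L and DEC205_Flt3L came from pools of 20 C57BL/6 mice that had been injected with Flt3L melanoma and were killed on days 10 to 12. Flt3L is the ligand of the receptor Flt3 and drives DC expansion, and here ligand and tumour came together and cannot be told apart. The groups B_cells, CD4_T_cells and CD8_T_cells came from wild-type mice, with 5 to 8 mice in a pool. Age, sex and further genotype were not given in the sources used here. In pooled RNA of this kind, fewer cells of a type and less RNA per cell cannot be told apart.

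Proteins of the BCL2 family decide at the outer membrane of the mitochondria whether a cell enters apoptosis. BAX and BAK, once active, make pores in that membrane, and cytochrome c leaves through them to activate caspases. BCL2, BCL-XL (from Bcl2l1) and MCL1 hold them back, and the BH3-only proteins BIM (Bcl2l11), BID, PUMA (Bbc3) and BMF either block the pro-survival proteins or act on BAX and BAK directly. Lymphocytes depend on BCL2 and BIM for the length of their life, and mature DCs of the spleen live for days only.

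Signals are given in the units of the deposited table, in which the trimmed mean of each array had been set to 500 units. A difference is a log2 difference with its standard error (SE) after 48.6 units were added to each signal, which understates the change of dim genes. A gene was called when its adjusted p in limma was under 0.05. Errors beside mean signals are SDs of 3 arrays. Probes differ in how strongly they hybridise, so levels were compared between groups for one probe set and never between genes.

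Lineage genes were read against the labels. Median signals of the arrays ran from 121.9 to 204.4. All 5 measured T cell markers stayed under 156.3 units on every DC array, with sums of 156.1 to 344.1 on the DC arrays and 54193.5 to 87480.2 on the T cell arrays. Sums of 4 B cell markers were 555.3 to 2632.6 on the DC arrays and 82898 to 94596.9 on the B cell arrays, while the description field of the lymphocyte samples names them as DCs. Replicate 3 of DEC205_WT carried transcripts of the other subset, with a sum of 4 markers of 33D1-type DCs of 4042.8 against a lowest value of 1304.2 in its group. Its 5 neutrophil markers summed to 2367.3, against a lowest value of 691.8. On the other DC arrays neutrophil sums ran up to 2966.2, in 33D1_WT. Sums of 4 macrophage and monocyte markers were 16669.9 to 24477.3 in the 33D1 groups and 11617.1 to 15024.1 in the DEC205 groups. These markers did not share a direction. Adgre1, Csf1r and Cd68 were higher in the 33D1 groups, but Lyz2 was lower, at 908.4 to 3433.6 units against 5846 to 7606.1. Sums of 3 NK cell markers were 8447.3 to 12414.5 in the 33D1 groups and 721.9 to 1251.3 in the DEC205 groups. Of the NK cell markers, Ncr1 and Eomes lay under 156.3 units in every DC group. The part of these cells in the results was not tested. In replicate 3 of 33D1_Flt3L, 6 markers of DEC205-type DCs summed to 4412.1, against a lowest value of 1040.5 in its group. Both arrays are named below wherever a result moves without them.

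Most calls among the 8 members came from comparisons of cell types. Wild-type DCs (the mean of both subsets) against T cells (the mean of CD4 and CD8) gave 3 members called higher in DCs and 4 called lower, where 22.7% of all genes were called higher and 30.0% lower. Against B cells, 2 members were called higher in DCs and 4 lower, with 18.8% and 21.1% of all genes. B cells against T cells gave 4 members called higher in B cells and 3 lower, with 13.1% and 13.9% of all genes. These comparisons share arrays and are not independent of one another.

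Between the DC subsets of wild-type mice the share of members called was near that of all genes. There, 0 members were called higher in 33D1 DCs and 2 lower, where 11.3% of all genes were called higher and 11.8% lower. In Flt3L mice the counts were 0 and 1, with 11.7% and 11.8% of all genes. Flt3L against wild-type mice gave 0 calls among members in 33D1 DCs, with 0.851% of all genes called higher and 0.158% lower, and 1 member, called lower, in DEC205 DCs, with 1.22% and 0.888%. The difference between the subset contrasts gave 0 calls among members, with 0.0903% of all genes called higher and 0.0151% lower. In that contrast 1 of 8 members had an unadjusted p under 0.05 in limma, as had 635 of the 13284 genes tested. CD8 against CD4 T cells gave 1 member called higher and 0 lower, with 1.63% of all genes each way.

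**Figure D1:**
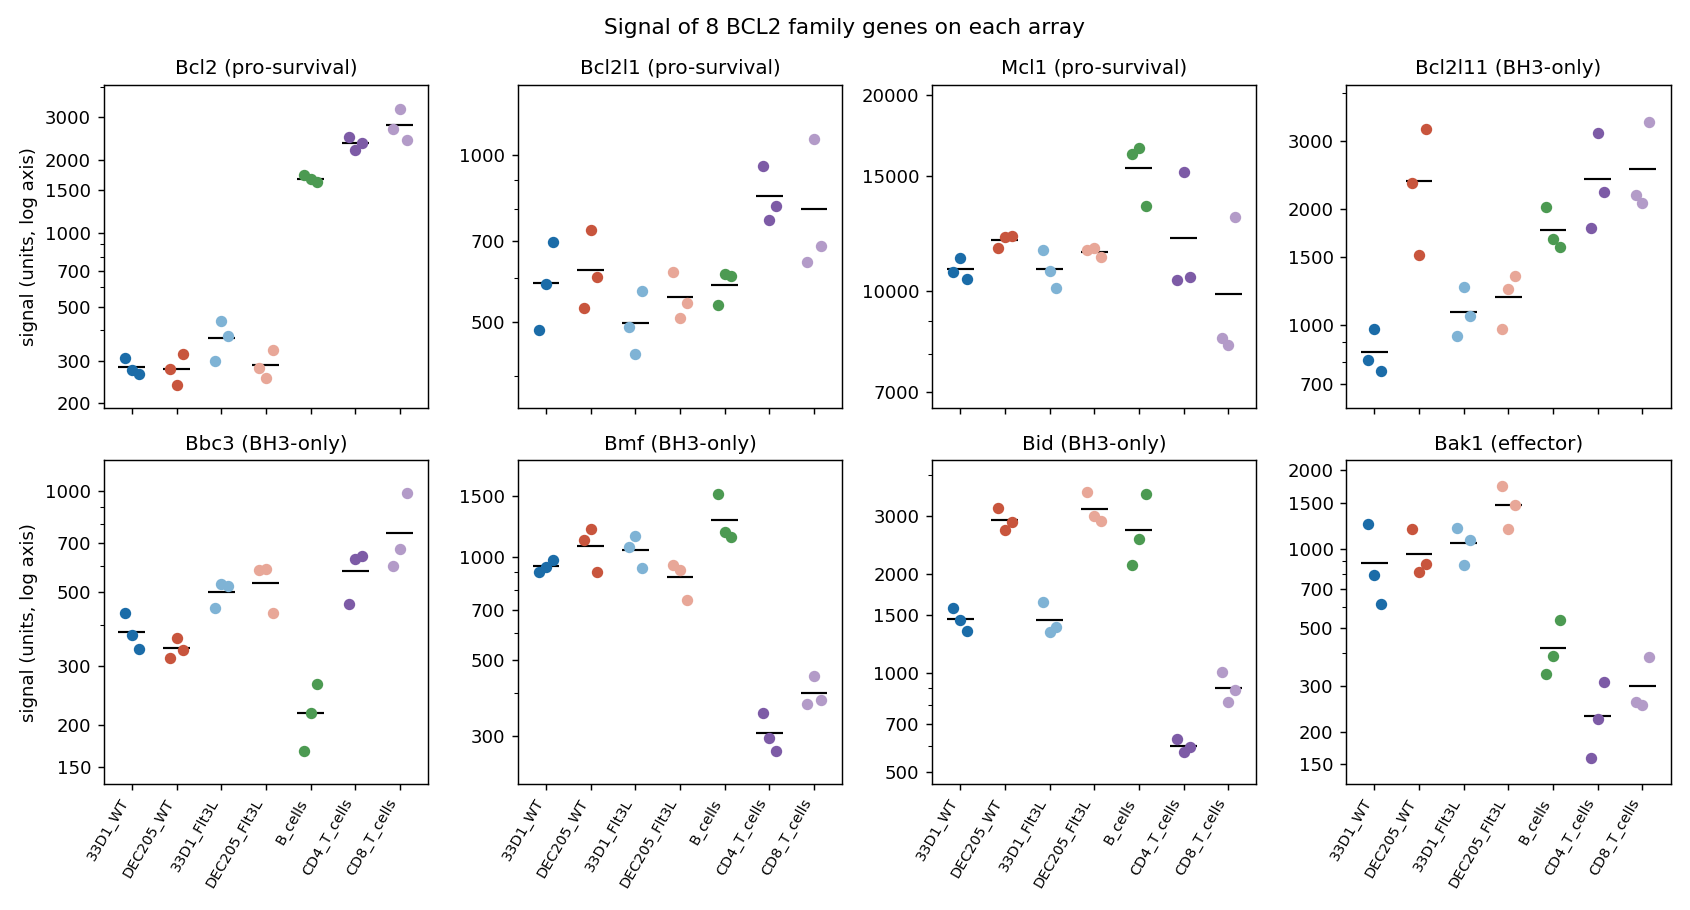
Signal of the probe set used for each of 8 genes on each of the 21 arrays, in units on a log axis, by group; points are arrays and bars are group means. Bcl2 lies under 436 units on every DC array and at 1617.6 units or more on every lymphocyte array, and Bak1 lies above 600 units on every DC array and under 540 on every lymphocyte array.

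Bcl2, the founding pro-survival gene of the family, had the widest span of group means among the 8 members. Its probe set 1457687_at gave 2492, 2198.4 and 2347.6 units in CD4 T cells and 2673.1, 3255.4 and 2423.2 in CD8 T cells. B cells gave 1730, 1670.2 and 1617.6 units. In wild-type DCs the signals were 308.6, 274.3 and 263.4 (33D1) and 278.2, 238.8 and 317.7 (DEC205). The T cell arrays were highest, the B cell arrays came next, and no lymphocyte array overlapped a DC array. Bcl2 was 7.91-fold lower in wild-type DCs than in T cells on the log2(signal + 48.6) scale, a difference of -2.98 ± 0.10 (adjusted p = 1.57e-16, limma). Against B cells the difference was -2.39 ± 0.13 (adjusted p = 6.72e-13), or 5.25-fold lower in DCs.

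Among lymphocytes, Bcl2 was lower in B cells than in T cells, by -0.59 ± 0.13 (adjusted p = 0.000844, limma), and the groups did not overlap. CD8 and CD4 T cells overlapped, at 2784 ± 427 and 2346 ± 147 units, and their difference of 0.23 ± 0.15 was not called (adjusted p = 0.588). All 5 kept Bcl2 probe sets gave the same sign in each of these 4 contrasts. Across them the DC minus T cell difference ran from -3.23 to -2.11.

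Bcl2 in the DCs of Flt3L mice lay below every lymphocyte array. The signals were 299.3, 435.7 and 377.2 units in 33D1_Flt3L and 280.3, 254.8 and 331.6 in DEC205_Flt3L. Each group overlapped the wild-type DCs of its own subset, and 3 of the 6 arrays lay above the highest wild-type DC array, at 317.7. The Flt3L minus wild-type difference in 33D1 DCs was 0.33 ± 0.15, with a 95% confidence interval from 0.03 to 0.63 and an adjusted p of 0.405, so it was not called. In DEC205 DCs it was 0.05 ± 0.15 (interval from -0.25 to 0.35).

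Bcl2l1, which encodes the pro-survival protein BCL-XL, varied little. Its group means ran from 498 ± 66 units in 33D1_Flt3L to 842 ± 99 in CD4 T cells, and every group overlapped its neighbour in the order of levels. T cell arrays gave 952.5, 762.5 and 809.6 (CD4) and 641.6, 1066.6 and 685.1 (CD8). B cell arrays, at 536.7, 609.9 and 605 units, all lay below them. The B minus T cell difference was -0.44 ± 0.15 (adjusted p = 0.037, limma). It was lost without any of the 3 B cell arrays (adjusted p 0.144, 0.0701 and 0.0693), without CD4 replicate 1 (0.0783) and without CD8 replicate 2 (0.0894), and with the compared groups alone (0.0819).

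Wild-type DCs were also lower than T cells in Bcl2l1, by -0.40 ± 0.13 (adjusted p = 0.00996), but the groups overlapped. The second kept Bcl2l1 probe set, 1420887_a_at, gave 0.08 in that contrast, and the mean of both gave -0.16 (adjusted p = 0.146). Wild-type DCs and B cells differed by 0.04 ± 0.15 on the probe set used (adjusted p = 0.883). With the mean of both probe sets the same contrast was 0.30 and was called (adjusted p = 0.0386).

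Mcl1, a pro-survival gene with a short-lived messenger and protein, was highest in B cells. Its 3 B cell arrays gave 16243.6, 16582.8 and 13498.4 units, and the 6 wild-type DC arrays lay between 10427.5 and 12158.9. The 2 groups did not overlap, and the DC minus B cell difference was -0.43 ± 0.13 (adjusted p = 0.0112, limma). Without B cell replicate 1 it was -0.39 (adjusted p = 0.0570), and without B cell replicate 2 it was -0.38 (0.0652). All 6 Mcl1 probe sets gave the same sign, from -0.65 to -0.43.

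Among T cells Mcl1 spread widely. CD4 T cells gave 10393.9, 15231.5 and 10522.6 units, and CD8 T cells gave 8470.8, 8257.6 and 12984.8. The high array of each group, CD4 replicate 2 and CD8 replicate 3, had an array median of 140.5 and 131.7, against 182.3 to 204.4 on the other 4 T cell arrays. Its part in the Mcl1 signal was not tested. Mcl1 was higher in B than in T cells by 0.52 ± 0.13 (adjusted p = 0.00435), with overlap, and the DC minus T cell difference of 0.08 ± 0.11 was not called (adjusted p = 0.531). CD8 minus CD4 T cells was -0.29 ± 0.15 (adjusted p = 0.458), and it was -0.50 and called without CD8 replicate 3 (adjusted p = 0.0498).

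Bcl2l11, which encodes the BH3-only protein BIM, was the member that differed most between the DC subsets of wild-type mice. DEC205_WT gave 2329.9, 1522.2 and 3217.9 units, and 33D1_WT gave 810, 977.4 and 759.2. Every DEC205_WT array lay above every 33D1_WT array, although the DEC205_WT arrays themselves ranged widely. The 33D1 minus DEC205 difference was -1.37 ± 0.23 (adjusted p = 0.000101, limma), or 2.58-fold lower in 33D1 DCs. The highest DEC205_WT array was replicate 3, which carried 33D1-type transcripts, and without it the difference was -1.11 (adjusted p = 0.00131). All 5 Bcl2l11 probe sets had the same sign, from -1.37 to -0.60, and the probe set used, 1456005_a_at, gave the largest size.

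In Flt3L mice the subsets overlapped in Bcl2l11, at 935.5, 1253.2 and 1053.8 units in 33D1_Flt3L and 972.6, 1235.5 and 1341.5 in DEC205_Flt3L. Their difference was -0.12 ± 0.23 (interval from -0.61 to 0.36, adjusted p = 0.787). The test of the difference between the subset contrasts gave 1.24 ± 0.33, with an unadjusted p of 0.00109 and an adjusted p of 0.246 in limma, and was not called. The same sign appeared for all 5 probe sets, from 0.39 to 1.24. DEC205_Flt3L and DEC205_WT did not overlap.

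The Flt3L minus wild-type difference of Bcl2l11 in DEC205 DCs was -0.91 ± 0.23 (adjusted p = 0.0416, limma), the one call of a member between mice. It was lost without replicate 1, 2 or 3 of DEC205_Flt3L (adjusted p 0.176, 0.115 and 0.0649) and without replicate 1 of DEC205_WT (0.121). Without replicate 3 of DEC205_WT the difference was -0.66 (adjusted p = 0.225). The call was kept under 5 of 15 settings in all. Sums of some markers of other cells moved in the same contrast. Those of 4 B cell markers were 2384.1 to 2632.6 in DEC205_WT and 555.3 to 1061.8 in DEC205_Flt3L. Most of this was Ms4a1, at 2198, 1815.7 and 2345.1 units against 751.6, 432.2 and 749.5. The B cell markers Cd79a and Cd79b lay under 156.3 units on every array of both groups. Sums of 4 markers of 33D1-type DCs were 1304.2 to 4042.8 in DEC205_WT and 382.7 to 486 in DEC205_Flt3L. The part of other cells in the Bcl2l11 difference was not tested. In 33D1 DCs the same contrast was 0.33 ± 0.23 (adjusted p = 0.717).

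T cells had Bcl2l11 signals of 1782.1, 3154.4 and 2217.4 (CD4) and 2167.7, 2068.9 and 3355.4 (CD8), and B cells had 2016.4, 1668.2 and 1592.6. The highest T cell arrays were again CD4 replicate 2 and CD8 replicate 3, those with the low medians, and their part was not tested here either. Wild-type DCs were lower than T cells by -0.77 ± 0.16 (adjusted p = 0.000418), with DEC205_WT overlapping the T cells and 33D1_WT below all of them. Against B cells the DC difference was -0.33 ± 0.20 and was not called (adjusted p = 0.220), and with the mean of the 5 probe sets it was -0.38 and called (0.00770). This contrast averages subsets that lay on either side of B cells on the probe set used. The mean was 849 ± 114 units in 33D1_WT and 2357 ± 848 in DEC205_WT, against 1759 ± 226 in B cells. B minus T cells was -0.44 ± 0.20 (adjusted p = 0.118), and it was called with the mean of the probe sets (-0.37, adjusted p = 0.0142) and after quantile normalization (-0.50, 0.0435).

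Bid encodes a protein that is cut by caspase-8 and carries a death receptor signal to the mitochondria. The gene was higher in DEC205 than in 33D1 DCs in both kinds of mice. DEC205_WT gave 3168.8, 2716.5 and 2863.9 units and 33D1_WT gave 1578.4, 1452.5 and 1341.4. In Flt3L mice the values were 3532.3, 2992.2 and 2894.1 for DEC205 and 1644.8, 1331.6 and 1382.3 for 33D1. The subsets did not overlap in either kind of mouse. The 33D1 minus DEC205 difference was -0.98 ± 0.14 in wild-type mice (adjusted p = 1.71e-05, limma) and -1.09 ± 0.14 in Flt3L mice (adjusted p = 4.44e-06).

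The subset differences of Bid in the 2 kinds of mice differed by -0.11 ± 0.20, with an interval from -0.53 to 0.31. Flt3L minus wild-type was -0.01 ± 0.14 in 33D1 DCs and 0.10 ± 0.14 in DEC205 DCs, and neither was called (adjusted p 0.995 and 0.880). All 3 Bid probe sets gave the same sign in both subset contrasts. They ran from -0.98 to -0.58 in wild-type mice and from -1.17 to -0.52 in Flt3L mice.

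T cells had the lowest Bid signals of all groups. CD4 T cells gave 631.7, 577 and 595 units and CD8 T cells gave 1008.6, 814.5 and 886.6, while B cells gave 2129.1, 2553.3 and 3485. B cells overlapped DEC205 DCs and lay above 33D1 DCs and T cells. Wild-type DCs exceeded T cells by 1.43 ± 0.10 (adjusted p = 6.18e-11, limma), and B cells exceeded T cells by 1.79 ± 0.12 (adjusted p = 9.51e-11). DCs were lower than B cells by -0.36 ± 0.12 (adjusted p = 0.0231), with overlap, and without B cell replicate 3 the value was -0.17 (adjusted p = 0.284). With the mean of the probe sets it was -0.33 (adjusted p = 0.0864). CD8 T cells exceeded CD4 T cells by 0.55 ± 0.14 (adjusted p = 0.0366) without overlap. That call was lost without CD4 replicate 1 (0.0597), 2 (0.102) or 3 (0.117) and without CD8 replicate 1 (0.170) or 3 (0.0736), and it was kept under 6 of 14 settings in all.

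Bbc3, which encodes the BH3-only protein PUMA, a target of p53, was lowest in B cells. Its single probe set gave 167.1, 217.2 and 266.4 units in B cells, close to the filter signal of 156.3. Wild-type DCs gave 431.9, 371.7 and 337.3 (33D1) and 317.7, 363.8 and 336.8 (DEC205). T cells gave 461.3, 628.1 and 641.2 (CD4) and 598.1, 671.6 and 989.1 (CD8). The 3 levels did not overlap. DCs were higher than B cells by 0.63 ± 0.17 (adjusted p = 0.00374, limma) and lower than T cells by -0.78 ± 0.14 (adjusted p = 4.22e-05), and B cells were lower than T cells by -1.41 ± 0.17 (adjusted p = 4.78e-07).

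In Flt3L mice, Bbc3 gave 449.1, 527.8 and 523 units in 33D1 DCs and 581.7, 585.6 and 431.5 in DEC205 DCs. Neither group overlapped the wild-type DCs of its own subset. The Flt3L minus wild-type difference was 0.36 ± 0.19 in 33D1 DCs (interval from -0.04 to 0.76, adjusted p = 0.562) and 0.57 ± 0.19 in DEC205 DCs (interval from 0.18 to 0.97, adjusted p = 0.154). Neither was called.

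Bmf, whose BH3-only protein is held at the cytoskeleton through dynein light chain 2, was low in T cells. CD4 T cells gave 351.6, 295.9 and 272.6 units and CD8 T cells gave 371.7, 448.4 and 381.7. Every DC array lay between 748 and 1202.7 units, and B cells gave 1526, 1183.7 and 1138.3. Wild-type DCs exceeded T cells by 1.40 ± 0.10 (adjusted p = 1.21e-10, limma) and B cells exceeded T cells by 1.73 ± 0.13 (adjusted p = 2.41e-10). CD8 and CD4 T cells did not overlap, but their difference of 0.34 ± 0.15 was not called (adjusted p = 0.310).

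DCs were lower than B cells in Bmf by -0.33 ± 0.13 (adjusted p = 0.0417), with overlap. The call was lost without replicate 1 or 2 of 33D1_WT (adjusted p 0.0708 and 0.0637), without replicate 3 of DEC205_WT (0.101), and without B cell replicate 1 (-0.21, adjusted p = 0.299) or 2 (0.0543). It was lost as well after quantile normalization (0.0661), without the filter (0.0520), with the mean of the probe sets (0.0768) and without both mixed arrays (0.101), and was kept under 9 of 18 settings. The other 2 kept Bmf probe sets lay under 350 units on all arrays and did not share one pattern. In DCs against T cells one of them gave -0.44, where the probe set used gave 1.40. No Bmf difference between DC groups was called.

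Bak1, which encodes the pore-forming effector BAK, was the mirror of Bcl2. Wild-type DCs gave 1240.9, 794 and 613.3 units (33D1) and 1187.9, 812 and 875.3 (DEC205). B cells gave 331.5, 388.9 and 532.7, and T cells gave 158.1, 222.8 and 310.1 (CD4) and 258.6, 253.1 and 386.1 (CD8). No lymphocyte array reached the lowest DC array. Bak1 was 3.09-fold higher in DCs than in T cells, a difference of 1.63 ± 0.17 (adjusted p = 4.46e-08, limma), and 2.06-fold higher than in B cells, at 1.04 ± 0.21 (adjusted p = 0.000383).

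B and T cells overlapped in Bak1, and B minus T cells was 0.59 ± 0.21 (adjusted p = 0.0437). The second Bak1 probe set, 1425716_s_at, gave -0.50 there, and the mean of both gave 0.05 (adjusted p = 0.871). That call was also lost without B cell replicate 2 or 3 (0.0840 and 0.245), without CD4 replicate 1 or 2 (0.10 and 0.0590) and without CD8 replicate 1 or 2 (0.0805 and 0.0837). It was lost too without the filter (0.0605), without the intensity trend (0.0626) and with the compared groups alone (0.103), and was kept under 7 of 17 settings. In DCs against T cells the 2 probe sets gave 0.81 and 1.63, and against B cells 1.30 and 1.04.

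In Flt3L mice Bak1 gave 1201.4, 869.8 and 1079.8 units in 33D1 DCs and 1737.5, 1192.5 and 1464.7 in DEC205 DCs. DEC205_Flt3L did not overlap DEC205_WT, and the difference of 0.59 ± 0.24 was not called (adjusted p = 0.302). The 33D1 minus DEC205 difference in Flt3L mice was -0.46 ± 0.24 (adjusted p = 0.205). With the mean of the 2 probe sets it was -0.72 and called (adjusted p = 0.00629). In wild-type mice the subsets overlapped, at -0.15 ± 0.24 (adjusted p = 0.757).

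**Figure D2:**
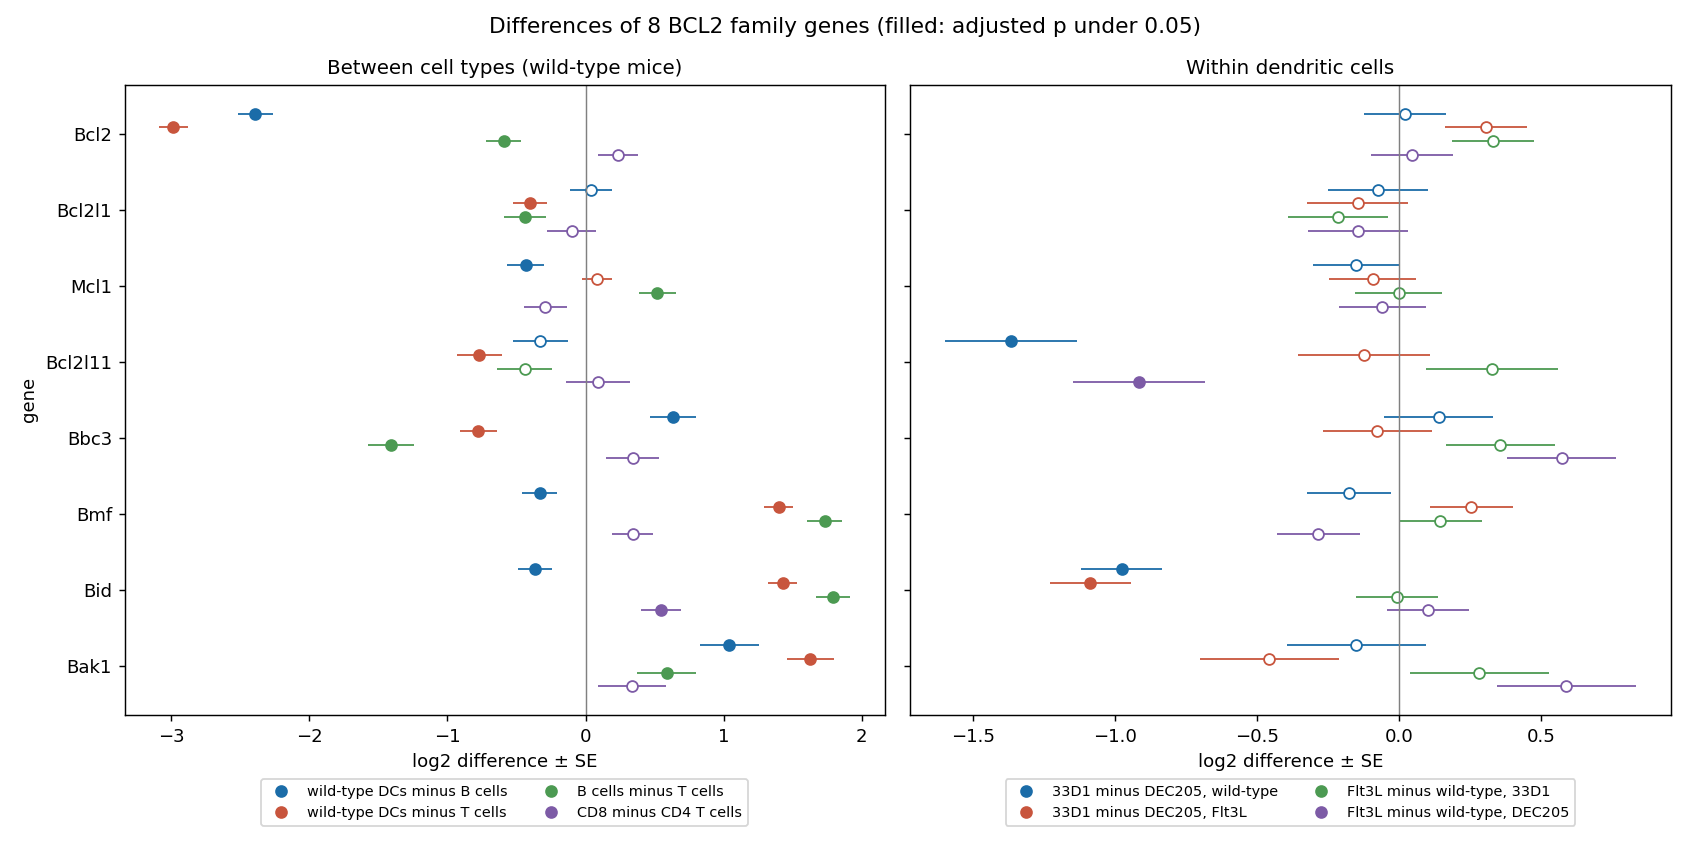
Log2 differences of 8 genes with their standard errors, between cell types of wild-type mice (left) and within DCs (right); filled circles have an adjusted p under 0.05 in limma. Bcl2 has the lowest values at the left, -2.98 and -2.39, and at the right 4 circles are filled, 2 for Bcl2l11 and 2 for Bid.

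Across the 21 arrays Bcl2 and Bak1 ran opposite, with a Pearson r of -0.91 on the log2 scale. Bid and Bmf had an r of 0.81, Bak1 and Bid 0.71, and Bbc3 and Bmf -0.71. The points share the 7 groups, the scaling of each array and the contrast of DCs with lymphocytes, so these values describe the pattern only.

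Promoters are shown for the members with a single listed start in build GRCm38.p6 that lies at the outer end of the RefSeq gene. This rule left Bcl2 and Bak1, which had opposite levels in DCs and lymphocytes. Each sequence is the 250 bases before the start, read 5′ to 3′ on the strand of the gene, which is the minus strand for both. Capitals mark matches, on either strand, to the PU.1-type core GAGGAAG, the forkhead core TGTTTAC, the cyclic AMP response core TGACGT and the Sp1-type GC box GGGCGG.
Bcl2, chr1:106714291-106714540: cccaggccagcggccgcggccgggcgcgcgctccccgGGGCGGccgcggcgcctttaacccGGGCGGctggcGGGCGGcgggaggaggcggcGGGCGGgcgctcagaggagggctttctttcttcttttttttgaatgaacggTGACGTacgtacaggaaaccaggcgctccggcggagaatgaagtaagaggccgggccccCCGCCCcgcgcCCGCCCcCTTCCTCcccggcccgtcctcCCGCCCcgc
Bak1, chr17:27028628-27028877: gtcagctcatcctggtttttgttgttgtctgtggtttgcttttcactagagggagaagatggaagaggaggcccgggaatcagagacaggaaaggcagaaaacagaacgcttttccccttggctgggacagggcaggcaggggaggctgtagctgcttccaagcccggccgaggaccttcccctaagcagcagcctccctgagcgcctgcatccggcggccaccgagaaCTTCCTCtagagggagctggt

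The Bcl2 window is 74.8% G and C, holds 7 GC boxes and 1 match to TGACGT, and has the PU.1-type core once, as its reverse complement. The Bak1 window is 58.4% G and C and has 1 match to the PU.1-type core, also as the reverse complement, and 0 GC boxes. Neither window holds the forkhead core. Of 32851 promoter windows of the same length, 10.6% hold GAGGAAG, 3.2% TGTTTAC, 6.5% TGACGT and 32.7% GGGCGG on either strand. The motifs did not overlap each other in these windows. A match describes letters and is not evidence of binding.

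For the 6 members whose group means spanned at least 1 log2 unit, the genes with the most similar pattern over the 21 arrays were found by Pearson r. Bcl2 was most like Gimap3 and S1pr1 (both 0.99) and Gm11346 (0.99), all with their highest group mean in T cells. Bak1 was most like Bri3bp (0.97), Ywhag (0.96) and Gnb2 (0.96), and Bid most like Tor3a (0.97), Prr5 (0.95) and Cd24a (0.95). Bmf was most like H2-Ob (0.97), Cyb561a3 (0.96) and Plcg2 (0.96), each highest in B cells and lowest in CD4 T cells. Bbc3 was nearest to Spred2 (0.91), Lgals3bp (0.89) and Camk2g (0.88), and Bcl2l11 to Cdk2ap2, Ptcd3 and Rwdd4a (each 0.87). The arrays share groups and scaling, and these values carry no test.

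**Figure D3:**
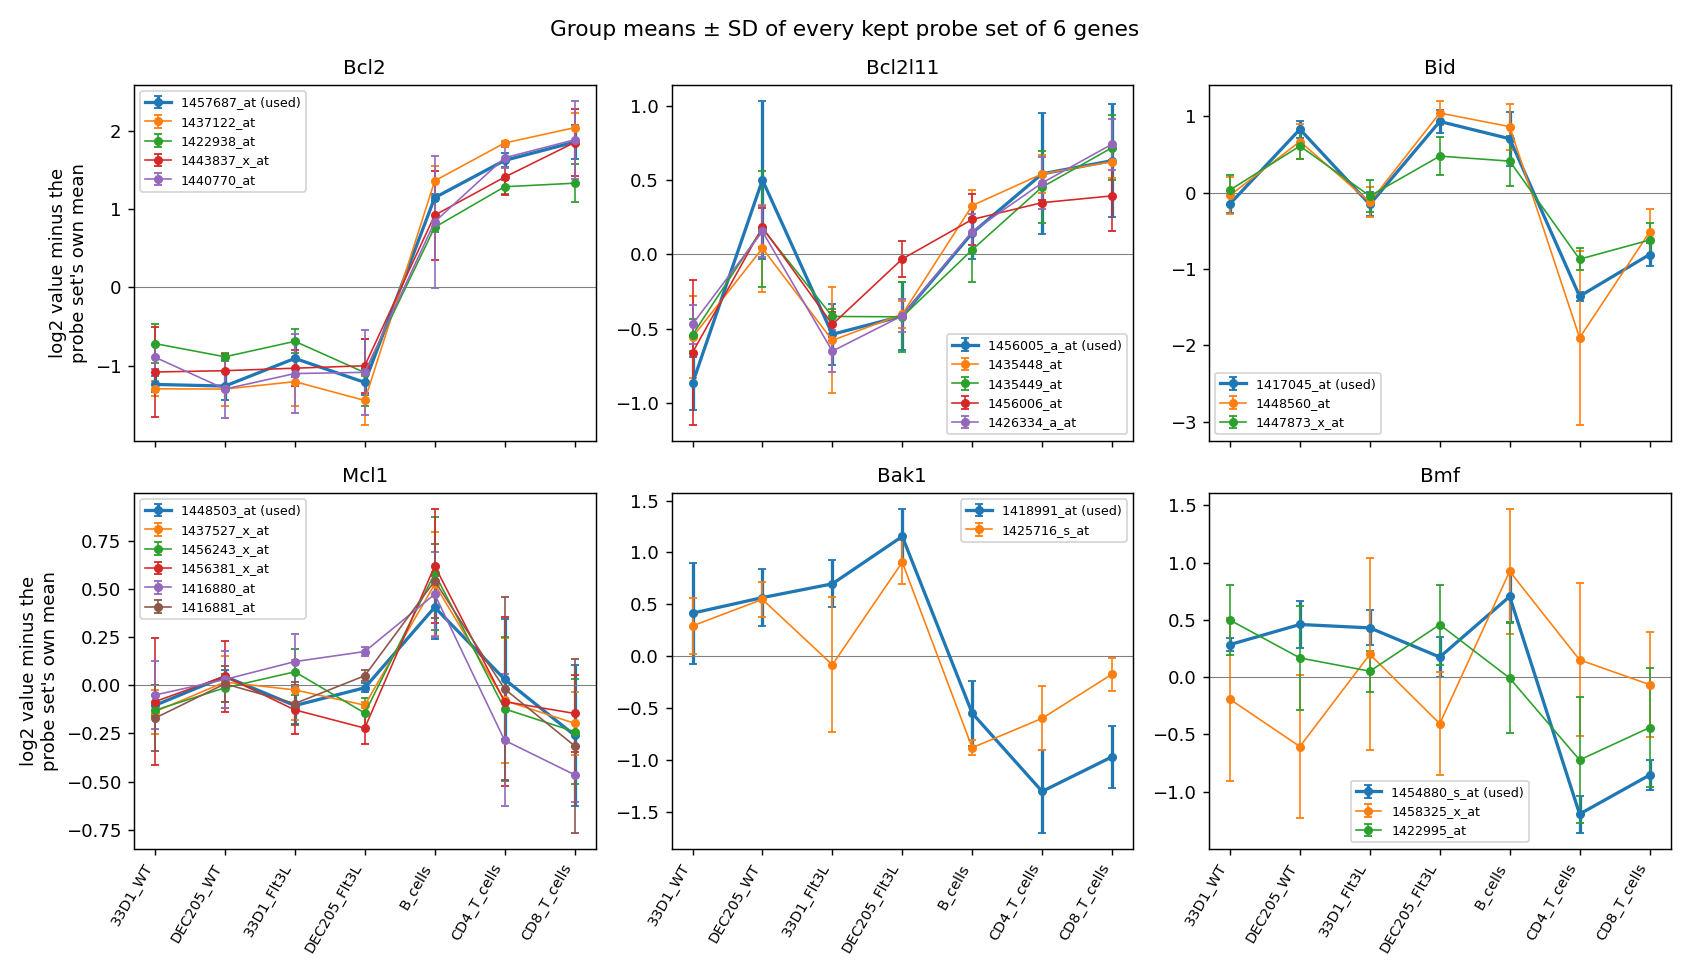
Group means with SDs of 3 arrays for every kept probe set of 6 genes, as the log2 value minus the mean of that probe set over all arrays; the thick line is the probe set used. The 5 Bcl2 lines and the 3 Bid lines run together, while the 2 Bak1 lines part between B and T cells and the 3 Bmf lines do not share a shape.

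Other genes of the family were also compared between DCs and lymphocytes, and 9 of 15 listed were tested. Against B cells, 2 were called higher in wild-type DCs and 1 lower, with 18.8% and 21.1% of all genes. In wild-type DCs against T cells, 5 were called higher and 1 lower (22.7% and 30.0% of all genes), with a median difference of 0.52 where that of all genes was -0.14 and that of the members -0.16. Pmaip1, which encodes the BH3-only protein NOXA, a partner of MCL1, had a mean of 12676 ± 1672 units in 33D1_WT and 7505 ± 2725 in DEC205_WT. It had 611 ± 281 units in B cells, 137 ± 21 in CD4 T cells and 211 ± 88 in CD8 T cells. No lymphocyte array reached a DC array, and Pmaip1 was higher in DCs by 5.48 ± 0.21 than in T cells (adjusted p = 1.49e-15, limma) and by 3.95 ± 0.26 than in B cells (adjusted p = 3.42e-11).

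Bcl2l14, a BCL2-like gene, was higher in DEC205 than in 33D1 DCs, as Bid was. Unlike Bid it was low in B cells, at 91 ± 23 units. It had 1483 ± 129 units in DEC205_WT and 1211 ± 45 in DEC205_Flt3L, against 301 ± 64 and 217 ± 65 in the 33D1 groups. The 33D1 minus DEC205 difference was -2.15 ± 0.31 in wild-type mice (adjusted p = 1.22e-05) and -2.28 ± 0.31 in Flt3L mice (adjusted p = 5.86e-06). In Flt3L mice Pmaip1 was called higher in 33D1 DCs (1.27 ± 0.30, adjusted p = 0.00311). Its difference between the wild-type subsets was not called.

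Of the genes that act after the mitochondrial step, 15 of 18 listed were tested, and in DCs against T cells 9 were called higher and 3 lower (median 0.57), where 22.7% of all genes were higher and 30.0% lower. Apaf1, the scaffold of the apoptosome, exceeded T cells by 1.40 ± 0.09 (adjusted p = 1.45e-11, limma) and B cells by 1.32 ± 0.11 (2.34e-09). Endog, a mitochondrial nuclease, was lower in DCs than in T cells by -1.95 ± 0.18 (adjusted p = 3.32e-09). Birc5, which encodes survivin and is also a gene of dividing cells, was higher in DCs than in B cells by 3.01 ± 0.46 (adjusted p = 1.40e-05).

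Between the wild-type subsets the same list had 3 genes called higher in 33D1 DCs and 5 lower, with 11.3% and 11.8% of all genes. Casp6, an executioner caspase, had 4840 ± 60 units in DEC205_WT and 1055 ± 61 in 33D1_WT, a difference of -2.15 ± 0.15 (adjusted p = 2.94e-10). In Flt3L mice it was -1.79 ± 0.15 (adjusted p = 4.62e-09). Cycs, cytochrome c, was lower in 33D1 DCs of wild-type mice by -0.82 ± 0.14 (adjusted p = 0.000120). Birc2 and Xiap, genes of the inhibitor of apoptosis family, were higher there, by 0.81 ± 0.12 and 0.53 ± 0.10. In Flt3L mice Cycs and Birc2 were called in the same directions (-0.70 ± 0.14 and 0.77 ± 0.12), but Xiap was not called.

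The death receptor pathway reaches the family through Bid, and 9 of its 11 listed genes were tested. In DCs against T cells 1 was called higher and 6 lower, with a median of -0.53, beside 22.7% and 30.0% of all genes. Casp8, the caspase that cuts BID, was lower in DCs than in T cells by -1.05 ± 0.09 (adjusted p = 7.64e-10) and than in B cells by -0.63 ± 0.11 (adjusted p = 5.03e-05), and Fas was lower than in T cells by -1.44 ± 0.21 (adjusted p = 5.69e-06). The TNF receptor gene Tnfrsf1a had 140 ± 71 units in B cells and no less than 1321.2 units on every T cell and DC array, and exceeded B cells in DCs by 3.85 ± 0.17 (adjusted p = 2.21e-14). Between the wild-type subsets, Cflar, an inhibitor of caspase-8, was higher in 33D1 DCs by 0.69 ± 0.13 (adjusted p = 0.000356), and Fasl was higher by 1.42 ± 0.34 (adjusted p = 0.00305). Fasl was dim, at 251 ± 51 units in 33D1_WT and 71 ± 52 in DEC205_WT, where every array lay under the filter signal of 156.3.

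Of 16 regulators and partners of the family, 15 were tested, and in DCs against T cells 3 were called higher and 5 lower (median -0.05), against 22.7% and 30.0% of all genes, a share near that of all genes. Foxo1, a forkhead factor known to act on Bcl2l11 and Bbc3, had 1396 ± 32 units in DEC205_WT, 615 ± 165 in DEC205_Flt3L, 799 ± 129 in 33D1_WT and 795 ± 100 in 33D1_Flt3L. It was 4052 ± 514 in B cells, 5613 ± 334 in CD4 T cells and 4303 ± 699 in CD8 T cells. DEC205_WT lay above the other DC groups and below all lymphocytes. The Flt3L minus wild-type difference in DEC205 DCs was -1.15 ± 0.16 (adjusted p = 0.000240, limma). In the same contrast the difference of Bcl2l11 was -0.91 ± 0.23, with a call kept under 5 of 15 settings. That of Bbc3 was 0.57 ± 0.19 and not called. A link between Foxo1 and the members was not tested. The difference of Foxo1 between the subset contrasts was 1.15 ± 0.22 (adjusted p = 0.0397), and this call was kept without replicate 2 of 33D1_WT (adjusted p = 0.0378) or replicate 3 of DEC205_Flt3L (0.00838) but lost without any other single DC array, at adjusted p from 0.0738 (without 33D1_Flt3L replicate 3) to 0.142 (without 33D1_WT replicate 3). It was also lost under each of the 9 other settings, with the mean of the Foxo1 probe sets giving 0.63 (adjusted p = 0.218).

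Foxo3, the related factor, ran the other way between wild-type subsets, with 33D1 DCs higher by 0.91 ± 0.16 (adjusted p = 0.000114). Dynll2, the dynein light chain that binds BMF, was higher in DEC205 than in 33D1 DCs, with 33D1 minus DEC205 at -0.94 ± 0.17 in wild-type mice (adjusted p = 0.000176) and -0.87 ± 0.17 in Flt3L mice (0.000408). It was higher in DCs than in B cells by 2.01 ± 0.14 (adjusted p = 1.43e-10).

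**Figure D4:**
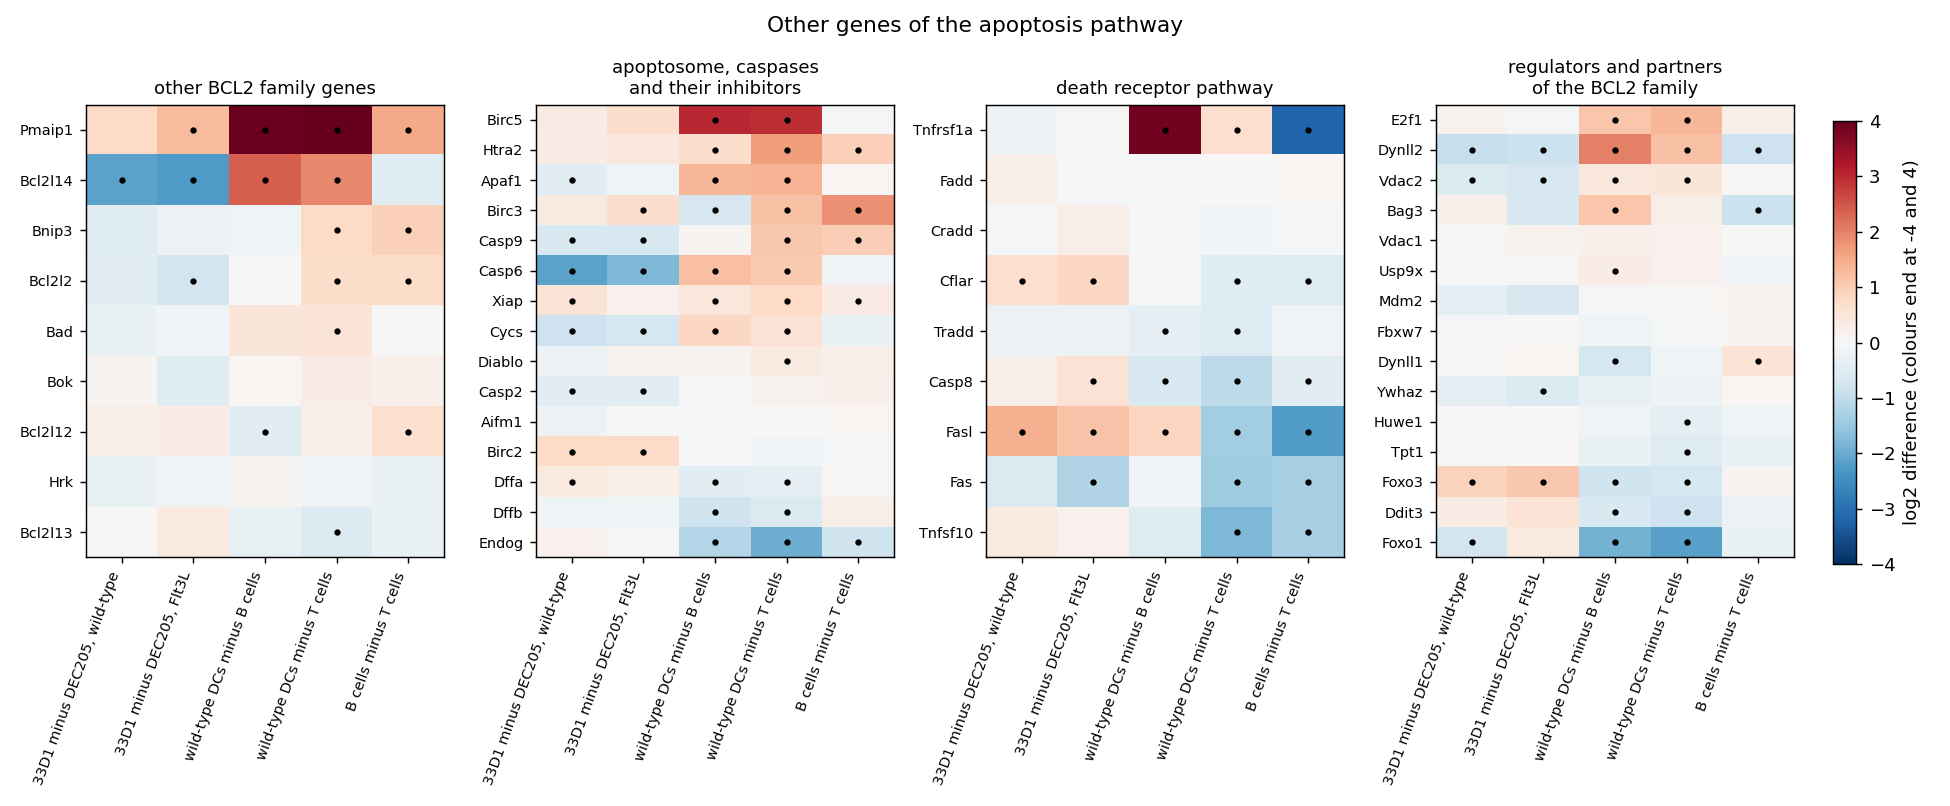
Log2 differences of the genes tested in 4 lists of the apoptosis pathway, in 5 contrasts, as colours, red for positive and blue for negative; a dot marks an adjusted p under 0.05 in limma. Pmaip1 and Tnfrsf1a carry the deepest red, and Casp6 and Bcl2l14 carry the deepest blue of the columns that compare DC subsets.

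The receptors through which survival cytokines act on the family divided by cell type, with all 9 listed genes tested, 4 called higher in DCs than in T cells and 3 lower (22.7% and 30.0% of all genes). Il7r, the receptor chain of interleukin-7 that maintains Bcl2 in T cells, had 12844 ± 477 units in CD4 and 12910 ± 629 in CD8 T cells and was lower in DCs by -5.54 ± 0.12 (adjusted p = 4.67e-20, limma). Flt3 was higher in DCs than in T cells by 5.13 ± 0.12 (adjusted p = 1.73e-19), with group means from 4933 ± 563 to 7898 ± 324 units in DCs. Tnfrsf13c, the BAFF receptor of B cells, was lower in DCs than in B cells by -4.75 ± 0.22 (adjusted p = 6.91e-14). Between the wild-type subsets, Il7r was higher in 33D1 DCs by 1.59 ± 0.16 (adjusted p = 1.24e-07). It was dim there, at 434 ± 37 units in 33D1_WT and 112 ± 10 in DEC205_WT, where every array lay under the filter signal of 156.3.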

How the data were processed

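RNA of 21 pools of sorted spleen cells was hybridised to Affymetrix arrays. The deposited table holds linear intensities, 1 per probe set and array. The authors produced them in GCOS with MAS5, according to the submitters' processing notes, whose versions are not stated there. The 2% trimmed mean of every array was 500.002 to 500.003 units, so scaling preceded deposit. Of 45101 probe sets, 64 were controls and were left out, 34945 had 1 gene symbol in the platform annotation, 932 had several and 9160 none, and 34741 of those with 1 symbol were matched to RefSeq by Entrez identifier, with 0 symbols changed.

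Probe sets with a signal above 156.3 (the table's median) on 3 or more arrays were kept. The kept probe set of highest mean stood for a gene, which gave 13284 genes, and values were log2(signal + 48.6), where the offset is the table's 25th percentile. A single model of the 7 group means was fitted to all 21 arrays, with 14 residual degrees of freedom (limma 3.58.1 in R 4.3.3, eBayes with an intensity trend). Tests were two-sided, with Benjamini-Hochberg adjustment over the genes of a contrast. The model was tested on simulated data. With 3 arrays in a group, their number limits the precision, and because the labels do not say how pools were kept apart, p-values measure only the spread between these samples, which may be technical.

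Named genes were every member, the 3 genes most correlated with each member whose group means spanned at least 1 log2 unit, and up to 4 called genes of smallest adjusted p from each list and contrast, of which the text gives a part. Members, lists and settings were chosen with earlier results of these data known. The settings tried were quantile normalization, median centring, an offset of 16, no filter, the mean of a gene's probe sets, a fit of the compared groups alone, no intensity trend, a replicate block, and leaving out arrays. Same-numbered arrays deviated together in all 3 pairs of the DC subsets of Flt3L mice, with correlations across genes of 0.15 to 0.23, so the numbers were taken to pair those arrays. In the other contrasts at least 1 pair was under 0.1. All 3 pairs were positive as well for Flt3L minus wild-type in DEC205 DCs, at 0.03 to 0.11, where the arrays came from different mice. The main model left out the pairing in Flt3L mice. The replicate block added an effect of the replicate number that all groups in the fit shared. It did not model a pairing of the Flt3L arrays alone.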

Additional observations from a re-analysis of the deposited data

How the results depend on the processing

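Of 72 member differences, 25 were called, and 17 of these were called under every setting run. The other 8 lost the call under at least 1 setting, and 0 called differences changed sign. The number of members called for Flt3L minus wild-type in DEC205 DCs went from 1 to 0 under median centring, without the filter, without the intensity trend, in a fit of the compared groups alone and without the 2 mixed DC arrays, and ran from 0 to 1 when single arrays were left out. For CD8 minus CD4 T cells it went from 1 to 0 under median centring, without the trend and with the compared groups alone, and ran from 0 to 1 with single arrays left out. With the mean of the probe sets, the 33D1 minus DEC205 contrast in Flt3L mice had 2 members called in place of 1.

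The replicate block changed no member call, with 1 member called for 33D1 minus DEC205 in Flt3L mice (Bid, adjusted p = 7.98e-06, limma) and 2, 0, 0, 1, 6, 7, 7 and 1 in the other contrasts.

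Sign changes came only from differences that were not called. Under quantile normalization Bcl2 was -0.065 between the wild-type subsets, and Mcl1 was 0.029 and 0.022 for Flt3L minus wild-type in 33D1 and DEC205 DCs and -0.026 for DCs minus T cells. Median centring gave -0.018 for Bcl2 between the wild-type subsets. The mean of the probe sets gave 0.19 for Bmf between the wild-type subsets, 0.016 for Mcl1 between the Flt3L subsets and -0.038 for Bmf in the difference of both. For Flt3L minus wild-type it gave 0.086 for Mcl1 and -0.046 for Bak1 in 33D1 DCs, and -0.0047 for Bcl2 and 0.069 for Bmf in DEC205 DCs. Without both mixed arrays, Mcl1 was 0.045 and Bid 0.025 for Flt3L minus wild-type in 33D1 DCs. The causes were not tested.

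With single arrays left out, ranges that crossed 0 were -0.41 to 0.068 (Bak1), -0.068 to 0.11 (Bcl2) and -0.19 to 0.048 (Bcl2l1) between the wild-type subsets, -0.097 to 0.051 (Bid) and -0.050 to 0.045 (Mcl1) for Flt3L minus wild-type in 33D1 DCs, -0.042 to 0.13 (Bcl2) in DEC205 DCs, -0.32 to 0.029 (Bcl2l1) and -0.13 to 0.31 (Bcl2l11) between T cells, -0.19 to 0.049 (Bcl2l1) in the difference of subset contrasts and -0.022 to 0.099 (Bcl2l1) for DCs minus B cells.

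Over all genes, counts of calls moved most for small contrasts. The difference of subset contrasts had 14 calls, against 8 with the offset of 16, 8 with the block, 6 without the trend, 4 with the mean of the probe sets, 3 without the mixed arrays and 3 to 14 with single arrays left out. Flt3L minus wild-type in 33D1 DCs had 134, against 87 without the trend, 85 without the mixed arrays, 286 with the compared groups alone and 53 to 111 with single arrays left out. In DEC205 DCs, 280 became 94 to 215 with single arrays left out. CD8 minus CD4 T cells had 433, against 219 with the compared groups alone. Of 97 called differences of other named genes, 21 lost the call under at least 1 setting and 0 changed sign.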
